A study of Mus musculus with 48 samples.

Results

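Spleen clonotypes that carried IgM together with a class-switched isotype were examined in 24 BCR heavy-chain libraries, 1 spleen from each of 24 B6 (C57BL/6) mice. A clonotype was a set of sequences of 1 library with the same V gene, J gene and HCDR3 nucleotides. It was a member when at least 1 of its sequences was assigned to IGHM and at least 1 to IGHA, IGHG1, IGHG2B, IGHG2C, IGHG3 or IGHE. The members were thus chosen by the isotypes measured in each HCDR3. Sequences found in spleens of 3 or more mice were removed first, from every mouse that held them. This is a literal reading of the study's short description of its contamination filter, and it took out more counts than the study's own step did, so it does not stand for that step. After that, 41958 of 2718754 IGHM-bearing clonotypes were members and 2676796 were IGHM-only, a class that could still hold IGHD. All isotypes together gave 3534861 spleen clonotypes. The rule uses isotypes, so switched isotypes and size are described without a test against IGHM-only clonotypes. They are tested between groups of mice, which the rule does not use, and IGHD, which it does not use either, is tested in both ways.

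The NOD-FMT group (n = 10) received ampicillin, vancomycin and metronidazole in the drinking water for 7 days and was then, at 5 weeks of age, gavaged daily for 3 weeks with fecal supernatant from 30 male NOD.B10.H2b mice over 20 weeks old, a strain with autoimmune dry eye. The PBS-T group (n = 9) had the same antibiotics and schedule with PBS in place of feces. The NC1 group (n = 5) was left untreated, so it differs from the other groups in antibiotics and gavage at once. RNA came from whole spleen with no sorting, so that fewer B cells of a kind and less RNA per cell cannot be told apart.

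A B cell first makes IgM, often with IgD from the same primary transcript. Class switch recombination then cuts out the DNA between the VDJ exon and a constant gene further downstream, and the cell makes IgG, IgE or IgA with its antigen-binding region unchanged. Cells of 1 clone can switch at different times and to different genes, and somatic hypermutation can act on the V region before or after the switch, so that IgM and switched sequences with 1 HCDR3 are read as relatives. Their constant genes are read from the minus strand, and on GRCm38 (GENCODE M21 annotation) they follow each other as IGHM (chr12:113418558-113422730), IGHD, IGHG3 (chr12:113356224-113361232), IGHG1 (chr12:113325240-113330523), IGHG2B (chr12:113302965-113307933), IGHG2C (chr12:113285325-113288932), IGHE (chr12:113269260-113273248) and IGHA (chr12:113254830-113260236). IgG3 is common in T-independent responses to bacterial polysaccharides, and IgA is the main antibody of mucosal surfaces.

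A count was 1 consensus sequence built from reads with the same UMI. The libraries held 11666610 counts as deposited and 10518641 after the filter, from 71859 in PBS-T 6 to 2032338 in NOD-FMT 3. The PBS-T 6 library stood apart. It lost 66.6% of its counts to the filter, against 4.94% to 11.96% in the other 23 mice, and 97.8% of that loss (140079 of 143300 counts) fell on 1 member, an IGHV2-9-1/IGHJ2 clonotype described below. When shared sequences were instead kept in the mouse with most counts of them, a reading chosen after seeing the data, PBS-T 6 lost 1.23% of its counts and kept 212507. IGHM made up 57.8% to 78.1% of counts in NOD-FMT, 63.1% to 85.8% in PBS-T and 64.5% to 71.2% in NC1. Shares of members and of isotypes were therefore compared between groups after every library was thinned to 71859 counts, as the mean of 10 draws. V gene use, mutations, HCDR3 properties, IGHD and presence in the gland were compared with all counts, with equal-depth values beside some of them.

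The members with the largest share of their library show how differently a clone could divide its isotypes. Their HCDR3 sequences are printed 5′ to 3′, because the HCDR3 defines the clonotype. Capitals mark bases that continue neither the germline V gene from the 5′ end nor the germline J gene from the 3′ end. They hold the D gene and added bases, and also any germline base beyond the first mismatch.
IGHV5-4/IGHJ4, NOD-FMT 8: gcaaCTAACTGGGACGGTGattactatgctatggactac
IGHV1-59/IGHJ4, NOD-FMT 3: gcaagGGAGatggactac
IGHV2-9-1/IGHJ2, PBS-T 6: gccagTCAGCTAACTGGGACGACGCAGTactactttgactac
IGHV1-20/IGHJ1, PBS-T 2: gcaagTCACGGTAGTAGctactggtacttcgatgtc
IGHV1-55/IGHJ2, NC1 3: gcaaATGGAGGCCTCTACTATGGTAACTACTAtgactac
IGHV1-26/IGHJ4, NC1 3: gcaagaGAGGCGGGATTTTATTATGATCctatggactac

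The IGHV5-4 clonotype took 8.81% of the counts of NOD-FMT 8 (Wilson 95% interval 8.73% to 8.90%, for counting error only), and it was mostly switched. It held 19849 IGHA, 11165 IGHG2C, 2527 IGHG2B and 2511 IGHM counts. Its sequences were close to germline in every main isotype, with 1.36 V mutations per unique IGHA sequence, 1.4 per IGHG2C and 1.48 per IGHM sequence. The IGHV1-59 clonotype of NOD-FMT 3 took 4.55% (4.52% to 4.58%) and had the shortest HCDR3 of these, with 6 residues and 4 bases outside the germline ends. It held 38664 IGHG3, 29103 IGHG2B, 17597 IGHA and 5663 IGHM counts, so IGHM was the smallest of these 4. Its IGHG2B sequences carried 5.69 mutations on average against 3.92 in IGHM. This clonotype also took 1.68% of the counts of the lacrimal gland of the same mouse, where 99.8% of its 1036 counts were IGHA.

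The leading IGHM sequence (1638 counts) and the leading switched sequence (IGHG2B, 16970 counts) of this IGHV1-59 clonotype are printed to show what a member is at the level of bases. Capitals mark the 3 positions of 296 at which they differ, all before the HCDR3, which is the same. In the other 5 clonotypes listed above, the leading IGHM and the leading switched sequence were identical, with 0 V mutations.
IGHM: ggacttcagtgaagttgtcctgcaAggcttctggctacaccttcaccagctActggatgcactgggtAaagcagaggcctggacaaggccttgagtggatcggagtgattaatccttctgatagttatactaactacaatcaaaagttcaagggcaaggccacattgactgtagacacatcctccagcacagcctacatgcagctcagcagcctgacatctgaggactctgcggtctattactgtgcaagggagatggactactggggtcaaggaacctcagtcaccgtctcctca
IGHG2B: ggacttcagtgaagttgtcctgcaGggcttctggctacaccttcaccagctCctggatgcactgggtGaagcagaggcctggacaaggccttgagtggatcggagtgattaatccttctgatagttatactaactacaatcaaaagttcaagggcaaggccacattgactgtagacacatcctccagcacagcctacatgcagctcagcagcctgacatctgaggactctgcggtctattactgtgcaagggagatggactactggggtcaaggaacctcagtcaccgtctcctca

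The largest members of the PBS-T and NC1 groups were mainly IGHM. The IGHV2-9-1 clonotype of PBS-T 6 took 39.6% of the counts left in its library (39.2% to 39.9%), with 27721 IGHM counts against 413 of IGHA, the most frequent of its switched isotypes. The IGHV1-20 clonotype of PBS-T 2 (4.49%, 4.41% to 4.57%) held 11402 IGHM counts and 46 IGHA counts. The IGHV1-55 clonotype of NC1 3 (3.41%, 3.36% to 3.47%) held 13214 IGHM and 116 IGHG2B counts. The IGHV1-26 clonotype of the same mouse (3.35%, 3.29% to 3.404%) had a larger switched part, with 9441 IGHM and 3624 IGHG3 counts, and it was more mutated, at 5.19 mutations per IGHM and 5.91 per IGHG3 sequence. Besides the IGHV1-59 clonotype, the IGHV2-9-1 clonotype was found in the gland of its mouse with 1232 counts (2.22% of that library, 67.0% IGHA), the IGHV5-4 clonotype with 8 counts and the IGHV1-20 clonotype with 1 count. Neither NC1 clonotype was found there.

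Over the pooled members of all mice, IGHA joined IGHM most often, but in 4 mice (NOD-FMT 3, PBS-T 2, PBS-T 8 and PBS-T 9) more members held IGHG2B than IGHA. IGHA was present in 20889 members (49.8%), IGHG2B in 16322 (38.9%), IGHG2C in 10480 (25.0%), IGHG3 in 9397 (22.4%), IGHG1 in 3257 (7.76%) and IGHE in 129 (0.307%). Most members, 29968 or 71.4%, had a single switched isotype. IGHA alone was the commonest pattern (13129 members, 31.3%), followed by IGHG2B alone (7588), IGHG2C alone (4094) and IGHG3 alone (3970). The commonest pair was IGHG2B with IGHA, in 2278 members with no other switched isotype. Of the members with IGHG2C, 43.6% also held IGHG2B, and of those with IGHE, 64.3% held IGHG2B and 54.3% held IGHG1. A total of 5 switched isotypes was found in 397 members, and all 6 in 3 members.

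The 3 members with every switched isotype came 1 from each group, and their HCDR3 sequences follow with the same use of capitals.
IGHV8-5/IGHJ3, NOD-FMT 3: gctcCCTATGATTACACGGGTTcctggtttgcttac
IGHV1-9/IGHJ3, NC1 1: gcaagaGGGGGGGACTTTtttgcttac
IGHV8-8/IGHJ4, PBS-T 1: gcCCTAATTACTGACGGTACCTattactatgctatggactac
The IGHV8-5 clonotype had 2970 IGHM counts and 41 IGHE counts. The IGHV1-9 clonotype was mostly IGHA, with 1443 IGHA against 236 IGHM counts and 1 IGHE count. It took 2.497% of the counts of the gland of its mouse, with 2012 counts, all of them IGHA. The IGHV8-8 clonotype was small, with 353 counts in all, 152 of them IGHM and 1 IGHE.

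Read the other way, most switched clonotypes had no IGHM sequence at this depth. Of 223916 switched clonotypes, 18.7% held IGHM and 181958 did not. Over all mice together, the share was highest for IGHG3 (46.1% of 20365 clonotypes), then IGHG2C (30.0%), IGHE (26.6% of 485), IGHG2B (21.8%), IGHG1 (21.1%) and IGHA (18.7% of 111636). IGHG3 was above IGHG1, IGHG2B, IGHG2C and IGHA in each of the 24 mice, while the lower part of this order varied between mice. IGHG1 lay below IGHA in 7 of 9 PBS-T, 2 of 10 NOD-FMT and 0 of 5 NC1 mice. Many members lay close to the limit of the rule. Exactly 1 IGHM and 1 switched count were found in 5615 members (13.4%), and 16444 (39.2%) had at least 2 counts of both.

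The first comparison between groups asked how many IGHM clonotypes were members. At equal depth the members were 1.36% to 3.22% of IGHM clonotypes in NOD-FMT (median 2.03%) and 1.09% to 3.17% in PBS-T (median 2.30%). The 5 NC1 mice had 1.26%, 2.21%, 1.61%, 1.07% and 1.37%. The NOD-FMT and PBS-T ranges overlapped almost entirely, and 4 of 5 NC1 values lay below both medians. The means were 2.10% ± 0.60 in NOD-FMT, 2.25% ± 0.70 in PBS-T and 1.50% ± 0.44 in NC1 (SD). NOD-FMT and PBS-T differed by -0.148 percentage points (exact permutation over 92378 splits, two-sided, p = 0.621). The treated groups lay above NC1 by 0.600 points for NOD-FMT and 0.749 points for PBS-T, and neither difference passed 0.05 after adjustment over 3 pairs (exact permutation, p = 0.0709 and 0.0549, both adjusted to 0.106). Without NC1 2, whose share was the highest of its group, both reached an adjusted p of 0.042 by the same exact permutation test. Before thinning, NC1 2 held 78315 counts, against 344953 to 536935 in the other NC1 mice. The part of this in its share was not tested.

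In counts the members were far larger than in clonotypes. They took 18.2% to 33.5% of counts in NOD-FMT (median 25.7%), 14.9% to 56.4% in PBS-T (median 28.1%), and 16.3%, 24.6%, 27.8%, 12.6% and 22.3% in the NC1 mice. The highest value was that of PBS-T 6. NOD-FMT and PBS-T differed by -4.48 points (exact permutation, p = 0.311). Without PBS-T 6 the difference was -1.25 points, and with shared sequences kept in the mouse with most counts it was -6.88 points.

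**Figure D1:**
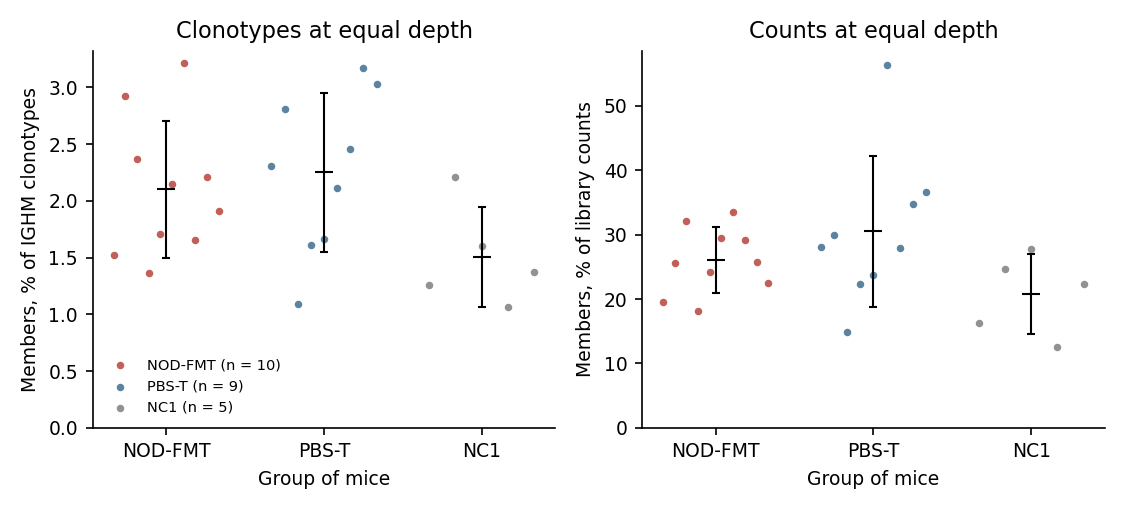
Share of members among IGHM clonotypes (left, %) and among library counts (right, %) at equal depth, with 1 point per mouse and the mean ± SD in black. NOD-FMT (2.10% ± 0.60) and PBS-T (2.25% ± 0.70) overlap on the left, and the highest point on the right is PBS-T 6 at 56.4%.

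The second comparison asked how often a switched clonotype was linked to IGHM, which was tested for 6 isotypes between NOD-FMT and PBS-T. Of these, 3 passed an adjusted p of 0.05 (50% of those tested): IGHG3 and IGHG2B were linked less often in NOD-FMT, and IGHG1 more often. The linked share of IGHG3, an early gene of the constant region, was 37.2% to 46.9% in NOD-FMT (median 41.6%) and 43.6% to 56.9% in PBS-T (median 48.2%). The NC1 mice had 50.7%, 46.3%, 48.8%, 52.5% and 49.9%. The groups overlapped, and 3 of the 10 NOD-FMT mice lay within the PBS-T range. The means were 41.9% ± 2.68, 49.0% ± 4.46 and 49.6% ± 2.28 (SD), and NOD-FMT and PBS-T differed by -7.06 points (exact permutation, adjusted p = 0.00149).

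The number of IGHG3 clonotypes moved with this result. At equal depth there were 372 ± 116 in NOD-FMT, 222 ± 43.4 in PBS-T and 159 ± 29.1 in NC1, so NOD-FMT had on average more IGHG3 clonotypes and a smaller part of them linked. These numbers were not tested between groups, and NOD-FMT 8, with 125, lay below every other mouse. The part of the number of clonotypes in the linked share, like that of the IGHM share of counts given above, was not tested. When a member had to hold a switched sequence unlike every IGHM sequence of its clonotype, the IGHG3 difference was -2.48 points (exact permutation, adjusted p = 0.322).

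For IGHG2B the linked share was 9.55% to 20.9% in NOD-FMT (median 14.4%), 16.0% to 25.1% in PBS-T (median 20.4%), and 18.8%, 18.5%, 20.7%, 16.7% and 17.5% in NC1. NOD-FMT and PBS-T differed by -5.56 points (exact permutation, adjusted p = 0.00822), and by -4.27 points with an adjusted p of 0.121 by the same exact test when all counts were used. For IGHG1 it was 14.6% to 27.9% in NOD-FMT (median 16.7%), 6.66% to 22.2% in PBS-T (median 8.47%), and 10.8%, 19.5%, 10.5%, 9.26% and 16.6% in NC1. The PBS-T mice were uneven, with 6 of 9 at 11.5% or less and the rest within the NOD-FMT range. The difference of 5.95 points had an adjusted p of 0.0437 by exact permutation. This call was lost when any of 12 of the 19 mice was left out, with adjusted p up to 0.0874, and under 4 of 9 other ways of processing, with adjusted p up to 0.385. At equal depth a NOD-FMT mouse had 923.8 to 1786.7 IGHG2B clonotypes and a PBS-T mouse 631.1 to 1300.4. Those that also held IGHM numbered 117.5 to 317.7 and 101.2 to 326.4. For IGHG1 there were 103.5 to 286.6 and 117 to 435.5 clonotypes, and 15.3 to 57.5 and 17.6 to 50.1 of them held IGHM. The part of these numbers in the linked shares was not tested.

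IGHG2C, IGHA and IGHE did not pass. Linked shares of IGHG2C were 23.4% ± 2.98 in NOD-FMT, 25.5% ± 5.49 in PBS-T and 24.6% ± 1.78 in NC1 (SD). Those of IGHA were 14.8% ± 2.64, 15.9% ± 4.27 and 10.1% ± 3.04. IGHE rested on very few clonotypes, with a mean of 4.82 per NOD-FMT library at equal depth.

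**Figure D2:**
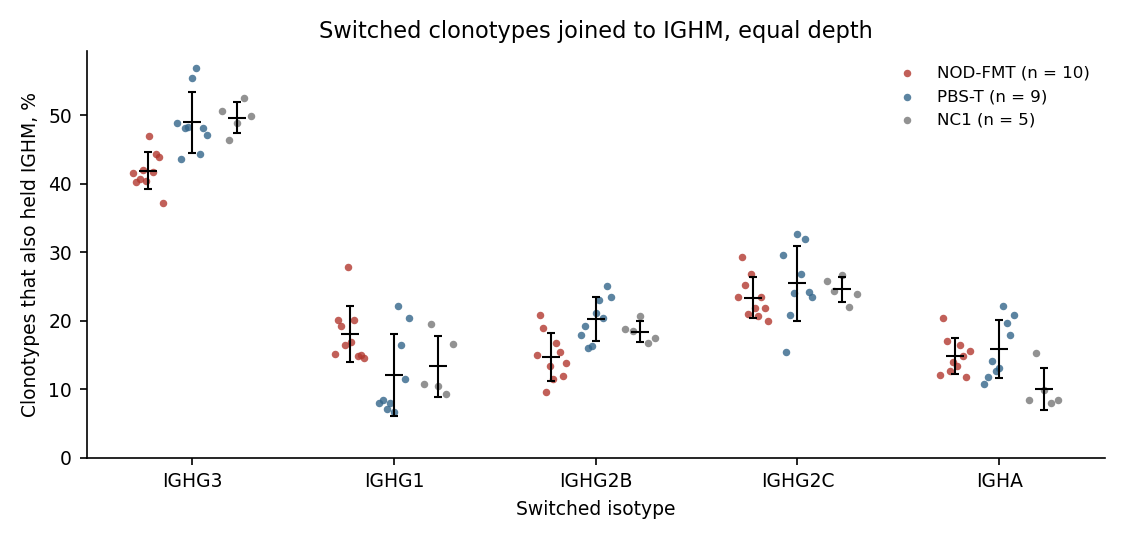
Share of switched clonotypes that also held IGHM (%) at equal depth for 5 isotypes, with 1 point per mouse and the mean ± SD in black. For IGHG3 the NOD-FMT mice centre on 41.9%, below PBS-T (49.0%) and NC1 (49.6%), and IGHG1 of NOD-FMT has 1 mouse at 27.9%.

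Seen from the members, none of the 6 isotypes differed between NOD-FMT and PBS-T in the share of members that held it (0% of those tested). By the unadjusted exact permutation test 1 isotype, IGHG3, was under 0.05. At equal depth 13.1% to 37.9% of members in NOD-FMT held IGHG3 (median 30.6%), against 13.5% to 34.1% in PBS-T (median 21.8%) and 21.99%, 8.37%, 23.9%, 24.1% and 24.8% in NC1. The difference of 6.97 points had an adjusted p of 0.279 by exact permutation, and it passed (adjusted p = 0.0375) without NOD-FMT 8, the lowest of its group. IGHA was held by 48.5% ± 6.37 of members in NOD-FMT, 48.04% ± 16.5 in PBS-T and 57.1% ± 11.6 in NC1 (SD). The PBS-T mice spread widely, from 23.99% in PBS-T 2 to 68.9% in PBS-T 7.

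The V regions of the members were more mutated than those of IGHM-only clonotypes, and the switched sequences of a member were about as mutated as its own IGHM sequences. V mutations are mismatches to the germline V gene, averaged over the unique sequences of a clonotype and then over clonotypes. The IGHM sequences of members carried 1.79 to 2.60 mutations in NOD-FMT (median 1.97), 1.29 to 2.84 in PBS-T (median 1.92), and 1.81, 2.51, 2.08, 1.83 and 2.505 in NC1. Those of IGHM-only clonotypes carried 0.247 to 1.55 over all mice. Members exceeded IGHM-only clonotypes in 24 of 24 mice, by 0.968 in PBS-T 3 to 2.04 in NC1 5. The mean difference was 1.41 ± 0.27 mutations (SD, n = 24; sign-flip permutation over mice, p = 1e-05, the smallest that 100000 draws can give). Within classes of clonotypes with equal numbers of IGHM sequences it was 0.918 ± 0.252.

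This excess was 1.44 ± 0.18 in NOD-FMT, 1.29 ± 0.31 in PBS-T and 1.55 ± 0.30 in NC1 (SD). NOD-FMT and PBS-T differed by 0.145 mutations (exact permutation, p = 0.219). Within size classes the difference was 0.222 (exact permutation, p = 0.0358) and with at least 2 counts of IGHM and of switched isotypes it was 0.287 (exact permutation, p = 0.0304). Neither passed after adjustment over 6 values, with adjusted p of 0.0796 and 0.182 by exact permutation.

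Within a member, switched sequences carried 0.0254 ± 0.107 more mutations than IGHM sequences (SD, n = 24), with 14 mice above 0 and 10 below (sign-flip permutation, p = 0.274). The sign was not stable. With sequences weighted by their counts the switched sequences were ahead by 0.139 in 22 of 24 mice (sign-flip permutation, p = 1e-05), and with at least 2 counts of both they were behind by -0.0153 (p = 0.672). On average over mice, switched sequences had more mutations than IGHM in 33.4% of members, fewer in 38.9% and the same number in 27.7%.

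Many members had a switched sequence identical to an IGHM sequence. Compared over the last 250 V-aligned bases and all that follows, 66.9% to 85.5% of the members of a mouse had a switched sequence identical to 1 of their IGHM sequences, and 38.1% to 56.7% had no other kind of switched sequence. An IGHM sequence without any V mutation was present in 54.8% to 76.8% of members and in 67.6% to 90.0% of IGHM-only clonotypes.

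By isotype, the members with IGHG1 had the most mutated switched sequences and those with IGHG2B and IGHG2C the least. The means over 24 mice were 2.48 ± 0.59 mutations for IGHG1, 2.27 ± 0.52 for IGHG3, 2.14 ± 0.38 for IGHA, 1.89 ± 0.56 for IGHG2C and 1.84 ± 0.49 for IGHG2B (SD). The IGHM sequences of the same clonotypes had nearly the same means, 2.34, 2.35, 2.21, 1.99 and 1.87 in that order. Switched sequences of the same isotype in clonotypes without IGHM carried more. For IGHA these had 3.79 ± 0.53 mutations, above the members in 24 of 24 mice, for IGHG2C 3.28 ± 0.54 and for IGHG2B 2.90 ± 0.53, both in 24 of 24 mice. For IGHG1 they had 3.55 ± 0.58, above the members in 23 of 24 mice, and for IGHG3 2.77 ± 0.73, in 21 of 24. These per-isotype values were computed after the results above were known and carry no test.

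**Figure D3:**
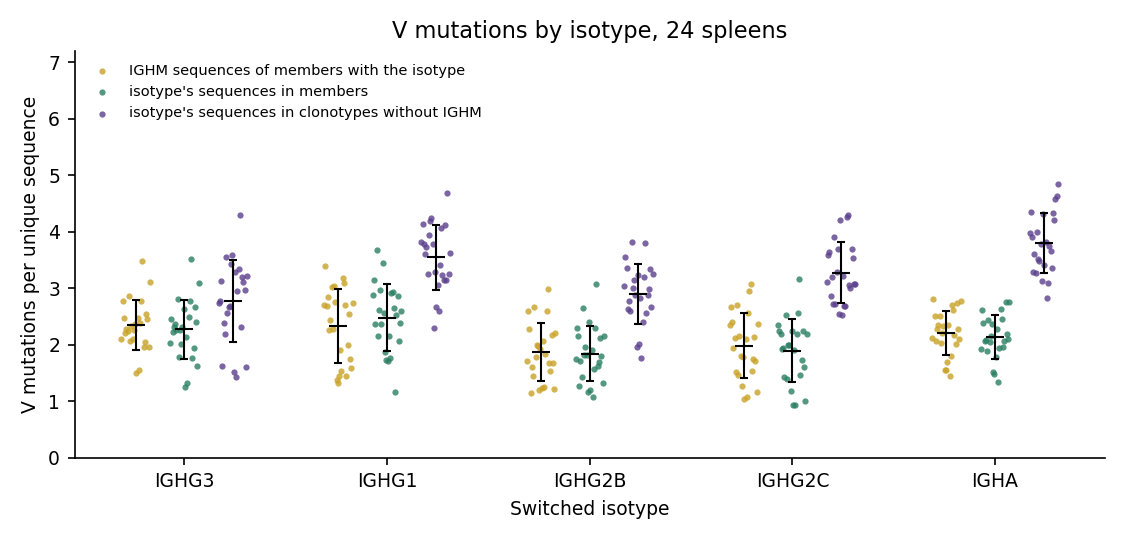
V mutations per unique sequence (mean over clonotypes) for 5 switched isotypes, with 1 point per mouse and the mean ± SD in black. For IGHA the members stand at 2.14 ± 0.38, near their own IGHM sequences (2.21), while IGHA clonotypes without IGHM stand at 3.79 ± 0.53.

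The members were large clonotypes, which follows in part from the rule, since a clonotype with more sequences has more chances to show both isotypes. The median member held 8 to 20 counts depending on the mouse, against 1 count for the median IGHM-only clonotype of every mouse. Members made up 58 to 100 of the 100 largest clonotypes of a library. Of IGHM clonotypes with a single unique IGHM sequence, 0.407% to 1.45% were members, and of those with over 10, 47.3% to 82.9%. IGHM was still the larger part for most of them, and 29.8% to 42.8% of the members of a mouse had more switched than IGHM counts.

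Because of this, IGHD and the presence of the clonotype in the lacrimal gland of the same mouse were compared within 5 size classes (1, 2, 3 to 5, 6 to 10 and over 10 unique IGHM sequences). The last class has no upper limit, so members and IGHM-only clonotypes were matched in size only in part, and the tests below do not remove size. IGHD, whose gene is cut out when a cell switches, was found in 0.704% to 15.7% of members in NOD-FMT (median 7.49%), 1.04% to 11.6% in PBS-T (median 6.22%), and 6.97%, 6.77%, 7.35%, 4.92% and 7.49% in NC1. Size-matched IGHM-only clonotypes had 0.609% to 6.59% over all mice. Members were higher in 24 of 24 mice, from 0.0661 points in NOD-FMT 4 to 9.08 points in NOD-FMT 3, on average by 4.08 ± 2.39 points (SD; sign-flip permutation, p = 1e-05). At equal depth the mean was 2.23 points (sign-flip permutation, p = 1e-05), with NOD-FMT 4 and PBS-T 2 below 0.

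The lacrimal gland is the tissue of tear secretion, and its plasma cells make mainly IgA. Members of the spleen were found there in 1.51% to 12.4% in NOD-FMT (median 6.88%), 3.53% to 13.5% in PBS-T (median 6.78%), and 8.24%, 10.3%, 8.59%, 6.89% and 8.05% in NC1. Size-matched IGHM-only clonotypes were found there in 0.0239% to 4.81%. The difference was 6.71 ± 2.54 points, and members were higher in 24 of 24 mice (sign-flip permutation, p = 1e-05). At equal depth of the spleen libraries it was 10.5 points, again in 24 of 24 mice. As a background, members were found in the gland of another mouse in 0.0588% to 0.374% on average over the 23 other glands. For IGHM-only clonotypes it was 0.0445% to 0.179%. The contamination filter had already taken out sequences that several mice shared, which can lower this background. No background without the filter is given, so how far the filter widens the gap between own and other glands was not tested. The test of each difference between NOD-FMT and PBS-T did not pass (exact permutation over 6 such values, adjusted p = 0.794 for IGHD and 0.606 for the gland). For the gland, NOD-FMT lay above PBS-T by 0.852 points, and by 3.00 points in thinned spleen libraries (exact permutation, adjusted p = 0.147). The gland libraries were not brought to equal depth, and the part of their depth in this comparison was not tested.

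**Figure D4:**
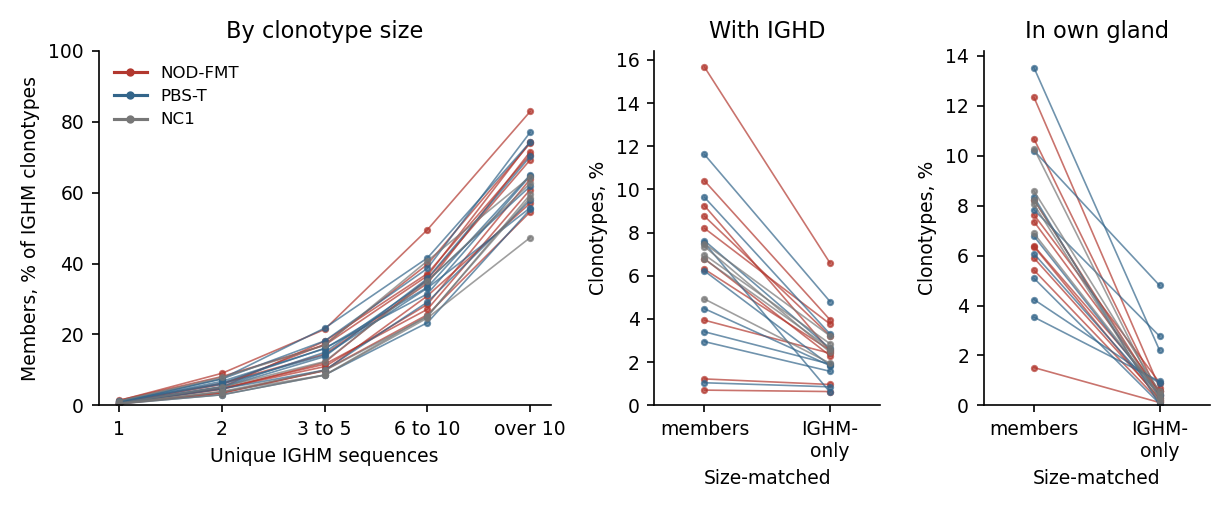
Left, members as % of IGHM clonotypes by the number of unique IGHM sequences, 1 line per mouse. Middle and right, % of members and of size-matched IGHM-only clonotypes with IGHD and in the lacrimal gland of the same mouse, where every line falls from members to IGHM-only.

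V gene use differed between members and IGHM-only clonotypes for many genes. Of 84 V genes with at least 0.1% of IGHM clonotypes, 17 (20.2%) were used more by members and 26 (31%) less (sign-flip permutation over 24 mice, adjusted p under 0.05). Use is a share, so that gains of some genes lower the others. Within size classes 25 of these 43 genes passed in the same direction, and 7 had the opposite sign.

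IGHV4-1 (chr12:113948282-113948796) had the largest gain. It was used by 0.603% to 5.40% of members in NOD-FMT (median 1.81%), 0.584% to 5.53% in PBS-T (median 3.26%), and 2.54%, 1.43%, 1.38%, 3.94% and 2.17% in NC1. It was used by 0.112% to 0.427% of IGHM-only clonotypes, so that the ranges did not overlap. The means were 2.42% and 0.272%, higher in members in 24 of 24 mice (adjusted p = 6e-05, sign-flip permutation), and the difference was 1.96 points within size classes. Many of these members had close neighbours. Of IGHV4-1 members, 44.3% had a larger clonotype of the same V and J gene at 1 HCDR3 base in the same library, against 12.8% of all members and 2.29% of IGHM-only clonotypes. Without such clonotypes IGHV4-1 use was 1.50% against 0.233%, still higher in 24 of 24 mice. This count was chosen after the values were seen.

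IGHV7-3 (chr12:114153180-114153644) was used by 3.13% ± 0.84 of members and 1.46% ± 0.20 of IGHM-only clonotypes (SD), higher in 23 of 24 mice. IGHV8-5 (chr12:115067560-115068002) was used by 1.09% ± 0.82 against 0.275% ± 0.057, also in 23 of 24 mice. Both kept their gain within size classes, with 1.39 and 0.765 points. With at least 2 counts of IGHM and of switched isotypes the IGHV7-3 gain was 0.262 points and did not pass (sign-flip permutation, adjusted p = 0.409), while IGHV4-1 (3.28 points) and IGHV8-5 (0.664 points) passed. The gains of IGHV1-53 (6.03% against 4.38%) and IGHV2-3 (1.88% against 1.09%) did not pass within size classes, with differences of 0.0788 and -0.0958 points (sign-flip permutation, adjusted p = 0.884 and 0.754), nor with at least 2 counts, with -0.270 and 0.339 points (adjusted p = 0.630 and 0.409 by the same permutation test). In NC1, IGHV2-3 was used by 0.955% of members and 1.07% of IGHM-only clonotypes, lower in 4 of the 5 mice. IGHV6-3 was used by 3.85% of members and 2.66% of IGHM-only clonotypes, and within size classes the sign turned to -1.36 points (adjusted p = 0.000517, sign-flip permutation).

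Among the genes used less, IGHV1-69 (chr12:115623161-115623595) was used by 1.59% of members against 2.57%, lower in 24 of 24 mice, and IGHV1-64 by 3.01% against 3.78%, lower in 21 of 24. Both passed within size classes too, with -0.549 and -0.482 points. With at least 2 counts of both isotype classes IGHV1-69 had -0.159 points and did not pass (sign-flip permutation, adjusted p = 0.376), and IGHV1-64 passed with -0.760 points. IGHV1-26 (6.18% against 7.63%) and IGHV9-3 (1.97% against 2.83%) did not pass within size classes, with 0.0130 and -0.0287 points (sign-flip permutation, adjusted p = 0.967 and 0.897), nor with at least 2 counts, with -0.267 and -0.133 points (adjusted p = 0.454 and 0.632 by the same permutation test).

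**Figure D5:**
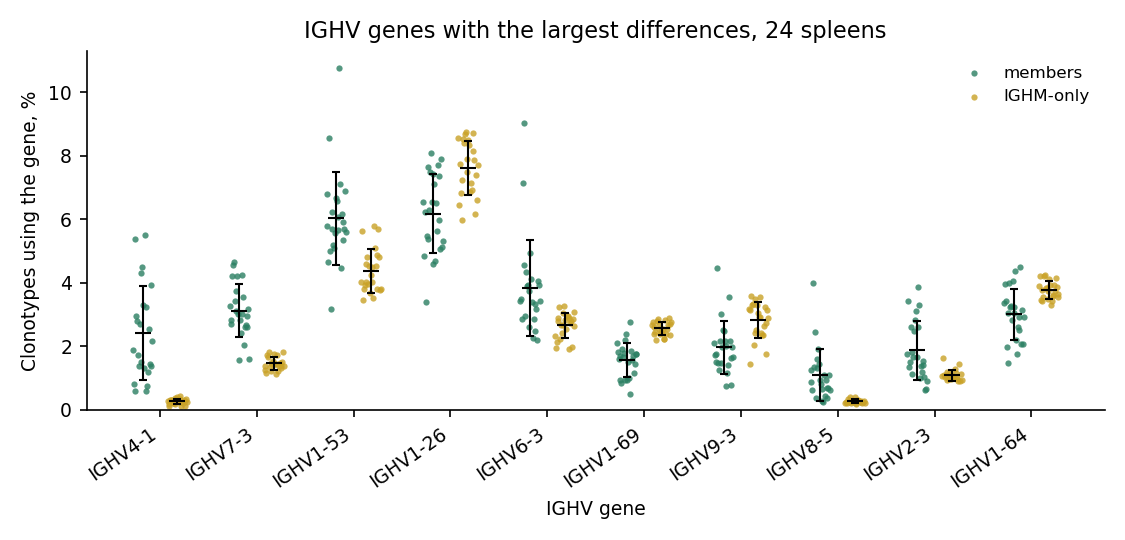
Use (% of clonotypes) of the 10 V genes with the largest differences in members and in IGHM-only clonotypes, with 1 point per mouse and the mean ± SD in black. IGHV4-1 is at 2.42% of members and 0.272% of IGHM-only clonotypes with no overlap, while IGHV1-26 and IGHV1-69 are lower in members.

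Between NOD-FMT and PBS-T, 1 of 84 V genes (1.19%) differed in its use by members with all counts, and it did not pass at equal depth. IGHV1-59 (chr12:115335082-115335514) was used by 0.896% to 3.401% of members in NOD-FMT (median 1.33%) and 0.236% to 1.00% in PBS-T (median 0.732%). The NC1 mice had 1.197%, 0.521%, 1.03%, 0.328% and 0.420%. The highest value was that of NOD-FMT 3, the mouse with the large IGHV1-59 clonotype printed above. The means were 1.60% ± 0.78 and 0.722% ± 0.229 (SD), a difference of 0.876 points (exact permutation, adjusted p = 0.0327). At equal depth it was 0.860 points (exact permutation, adjusted p = 0.130). In IGHM-only clonotypes the same gene was used by 1.19% and 0.914%. With any 1 of the 9 PBS-T mice left out no V gene passed, and without NOD-FMT 1 or NOD-FMT 9 there were 2 that did. In thinned libraries 4 other genes passed, named here after their values were seen. IGHV1-76 was used more in NOD-FMT, by 1.59 points, and IGHV1-36, IGHV1-85 and IGHV9-4 less, by -0.296, -0.347 and -0.695 points (exact permutation, adjusted p from 0.0255 to 0.0323). With at least 2 counts of IGHM and of switched isotypes, IGHV1-76, IGHV1-85 and IGHV9-4 passed and IGHV1-59 did not.

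All 4 J genes differed between members and IGHM-only clonotypes (100% of those tested). IGHJ1 (18.5% ± 1.92 against 15.7% ± 0.58) and IGHJ2 (37.8% ± 3.73 against 33.5% ± 1.04) were used more by members, in 23 and 21 of 24 mice. IGHJ3 (20.9% ± 2.91 against 24.5% ± 0.78) and IGHJ4 (22.8% ± 3.43 against 26.2% ± 1.26) were used less, each in 21 of 24 mice (SD; sign-flip permutation, adjusted p from 2e-05 to 0.0002). Within size classes IGHJ4 did not pass, with -0.291 points (adjusted p = 0.718, sign-flip permutation).

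The HCDR3 of members averaged 11.2 ± 0.27 residues against 11.4 ± 0.17 in IGHM-only clonotypes (SD), shorter in 18 of 24 mice. The difference of -0.222 residues (sign-flip permutation, p = 0.00056) depended on size and depth. In thinned libraries it was -0.0808 residues and did not pass (sign-flip permutation, p = 0.150). Within size classes members were longer by 0.151 residues (p = 0.00156), and with at least 2 counts of both isotypes by 0.415 residues (p = 1e-05). The difference was -0.345 ± 0.148 in NOD-FMT, negative in 10 of 10 mice, and -0.0863 ± 0.176 in PBS-T, negative in 5 of 9. The NC1 mice had -0.180, 0.296, 0.120, -0.403 and -0.928 residues. NOD-FMT and PBS-T differed by -0.258 residues (exact permutation, adjusted p = 0.0214 over 6 values). Within size classes the means were 0.0814 in NOD-FMT and 0.219 in PBS-T, positive in 8 of 10 and 8 of 9 mice, and their difference of -0.137 residues did not pass (exact permutation, adjusted p = 0.0796). In thinned libraries it was -0.236 residues with an adjusted p of 0.0506 by the same exact test. With at least 2 counts of both isotypes it was -0.123 residues with an adjusted p of 0.27 by that test. The net charge, lysine and arginine minus aspartate and glutamate, was -0.251 ± 0.092 in members and -0.266 ± 0.019 in IGHM-only clonotypes, a difference of 0.0142 (sign-flip permutation, p = 0.408). It was 0.0636 in NOD-FMT and -0.0212 in PBS-T (exact permutation, adjusted p = 0.0625 over 6 values). Within size classes the charge difference over all mice passed 0.05 by sign-flip permutation. Its means there were 0.0805 in NOD-FMT (above 0 in 9 of 10 mice), 0.00678 in PBS-T (4 of 9) and -0.0025 in NC1 (3 of 5).

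Of 41319 distinct clonotypes, 430 (1.04%) were members in 2 or more mice after the filter, which itself removes sequences that recur. Without the filter, a comparison chosen after seeing the data, these were 932 of 43144 (2.16%). The 5 that were members in most mice are printed with the same use of capitals.
IGHV7-1/IGHJ1: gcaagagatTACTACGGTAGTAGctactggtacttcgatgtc
IGHV8-5/IGHJ3: gctcaaatGAGGGggtttgcttac
IGHV1-55/IGHJ1: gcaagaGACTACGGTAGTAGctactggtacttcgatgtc
IGHV9-3/IGHJ1, first: gcaagaGATAGTAactggtacttcgatgtc
IGHV9-3/IGHJ1, second: gTAAGAGATAGTAactggtacttcgatgtc

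The IGHV7-1 clonotype was a member in 19 mice, 8 of NOD-FMT, 6 of PBS-T and all 5 of NC1. It held IGHA in all 19, IGHG3 in 1 and IGHG2B in 1, PBS-T 1, where 11 IGHG2B counts stood against 6 of IGHM and 4 of IGHA. Its IGHA part was 1 to 5 counts in every mouse but NOD-FMT 3 (19 counts) and NC1 4 (36 counts). Its IGHM sequences were close to germline, with 0.5 to 1.85 mutations, and it was found in the gland of 11 of those mice. It was small after the filter, at 4 to 95 counts (median 22), because shared sequences had been removed: 573 of its 7046 counts were left. The IGHV8-5 clonotype was a member in 12 mice and held IGHG3 in all 12, IGHG2C in 7, IGHG2B in 3 and IGHA in 2. After the filter, its IGHM part was only 1 or 2 counts in each of its 6 NOD-FMT mice. Before the filter it had 118 IGHM counts in NOD-FMT 1 and 21 in NOD-FMT 6, so these low values follow in part from the filter. It kept 365 of 8553 counts, with 3 to 196 per mouse, and it was found in 0 of the 24 glands, with or without the filter. The IGHV1-55 clonotype was a member in 11 mice, 3 of NOD-FMT, 8 of PBS-T and none of NC1, and held IGHA in 10. The first IGHV9-3 clonotype was a member in 10 mice, 8 of NOD-FMT and 2 of PBS-T, with IGHA in 8 and IGHG3 in 6. The second, in 4 NOD-FMT, 4 PBS-T and 2 NC1 mice, had the most mutated IGHM sequences of these, at 4.67 to 6.67 mutations. The 2 IGHV9-3 clonotypes share V and J gene, and their HCDR3 sequences differ only at the second base, which also makes their capitals differ. Whether they are separate or of 1 origin was not tested. These clonotypes were chosen for their recurrence, so the numbers of mice are a description without a test.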

How the data were processed

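Heavy-chain BCR libraries of 24 spleens, with those of the lacrimal glands of the same mice, were taken from tables in which each row is a unique sequence and isotype with its count. The authors joined read pairs (PEAR), filtered them on base quality, aligned reads that shared a UMI into consensus sequences (Clustal Omega), dropped UMIs with a single read, and assigned isotypes from IMGT constant genes and V and J genes with IgBLAST. The deposited counts are numbers of UMI consensus sequences, not normalized, and which germline reference release they used is not given in the sources used here. The label mm10 matches GRCm38, from which GENCODE M21 gave gene positions by symbol, for 83 of 84 V genes tested.

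Sequences present in 3 or more mice of a tissue were removed from all of them, a reading of the study's description that removed more than its own step. Clonotypes, members and thinned libraries were formed as described with the results. The mouse was the unit of every test. Groups were compared by exact permutation, over every way to divide the mice (92378 for NOD-FMT and PBS-T, 3003 and 2002 for NC1), members and IGHM-only clonotypes by sign flips over mice, two-sided, with Benjamini-Hochberg adjustment over 3 pairs, 6 isotypes, 84 V genes or 4 J genes and a threshold of 0.05. The text names all isotypes and J genes, the 10 V genes with the largest difference past the threshold, those past it between groups, the 2 largest members of each group, the 5 that were members in most mice and the 3 with most isotypes. Members, lists and tests were chosen with earlier results of these data known. The p-values treat each mouse as an independent unit. Nothing says whether mice of a group shared cages, in which case they may not be independent. The sign-flip and exact permutation tests of V gene use were run on simulated data, drawn with the spread between mice of IGHM-only clonotypes. The tests of the other values were not simulated. Figures were drawn with Matplotlib 3.10.9, and values computed with pandas 2.3.3, SciPy 1.17.1, NumPy 2.4.6 under Python 3.11.15.

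Same-numbered NOD-FMT and PBS-T mice did not deviate together, with correlations of V use from -0.364 to 0.250 over 9 numbers, and were not paired.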

Additional observations from a re-analysis of the deposited data

Results flagged for a closer look

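Values of 54 groups were searched for a mouse far from the rest of its group, a rule that chance meets in about 1 in 20 groups. For the linked share of IGHG1 at equal depth, NOD-FMT 5 had 27.9% where the other mice of its group had 14.6% to 20.1%. For the linked share of IGHA, NC1 2 had 15.4% against 8.04% to 9.89%, and of its members 8.37% held IGHG3 against 21.99% to 24.8%. NC1 2 was also the smallest library of its group, with 78315 counts before thinning. In NC1 5, 8.48% of members held IGHG1 against 3.85% to 5.17%. In PBS-T 2, switched sequences of members carried 0.392 more mutations than their IGHM sequences, against -0.0860 to 0.142 in the other PBS-T mice. In PBS-T 7, the HCDR3 net charge of members exceeded that of IGHM-only clonotypes by 0.159, against -0.0882 to 0.0140.

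The difference in HCDR3 length between members and IGHM-only clonotypes itself differed between NOD-FMT and PBS-T, by -0.258 residues (exact permutation, adjusted p = 0.0214), and by -0.137 within size classes (adjusted p = 0.0796). By the same exact test it was -0.236 in thinned libraries (adjusted p = 0.0506) and -0.123 with at least 2 counts of both isotypes (adjusted p = 0.27). The difference in net charge differed by 0.0849 (exact permutation, p = 0.0208, adjusted p = 0.0625), and by 0.0289 with at least 2 counts (exact permutation, adjusted p = 0.549).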

How the results depend on the processing

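Under the alternatives other than leaving out each mouse in turn, 105 of 115 tested values kept their direction and their side of the threshold. Of 49 numbers of differing isotypes or genes, 24 were identical and 40 within 1.5 times, which for the 3 isotypes with a differing linked share includes 2. Of 9 alternatives the call of IGHG3 was kept in 8, of IGHG2B in 7 and of IGHG1 in 5. The causes of the other changes were not tested. With at least 2 counts of IGHM and of switched isotypes, switched minus IGHM mutations in members were -0.0153, the NOD-FMT minus PBS-T difference in the mutations of members over IGHM-only was 0.287 (past the threshold here and within size classes only before adjustment), HCDR3 length was 0.415 residues longer in members, 28 V and 2 J genes differed, and 3 V genes differed between groups. Within size classes those differences were 0.222 mutations and 0.151 residues, and the net charge differed by 0.0356, past the threshold under this alternative only. In thinned libraries the HCDR3 length difference of -0.0808 did not pass and 4 V genes differed between groups, IGHV1-59 not among them. Switched minus IGHM mutations were 0.0725 with clonotypes by HCDR3 amino acids, 0.414 with a switched sequence unlike every IGHM sequence, a condition that itself selects for changes on the switched side (where 2 V genes differed between groups) and 0.139 weighted by counts. No V gene differed between groups without PBS-T 6 or without a filter on low use (0 in each), where the unadjusted exact test gave 19 of 84 genes with all mice.

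The linked share of IGHE, which rests on few clonotypes, turned to 1.65 points without the contamination filter, 2.12 with at least 2 counts, 8.56 without PBS-T 6 at a new depth of 78315, 2.78 with all counts and 0.0276 with shared sequences kept in the mouse with most counts. That last filter, chosen after seeing the data, left 11276140 counts, 43251 members and a depth of 81044. It changed no call of the comparisons, and IGHG3 differed by -6.17 points in linked share (exact permutation, adjusted p = 0.00234). The equal-depth values of the IGHD-bearing and gland shares and the group differences in HCDR3 length and charge within size classes, in thinned libraries and with at least 2 counts were also chosen after seeing the data. The linked share of IGHA turned to 0.205 with a switched sequence unlike IGHM and to 0.400 with all counts, and the share of members with IGHA turned to -0.200 with all counts.

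With the replicate number as a block, 1 isotype differed in linked share (IGHG3, -6.54 points, exact permutation, adjusted p = 0.0234), 0 V genes differed between groups, and the share of members with IGHA turned to -0.372. The block changed no other call in the comparisons, and the numbers do not pair the mice.

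With each mouse left out in turn, the member share differed by -0.293 to -0.0333 points between NOD-FMT and PBS-T, 0.477 to 0.777 between NOD-FMT and NC1, and 0.633 to 0.925 between PBS-T and NC1, where it passed without PBS-T 3 or NC1 2. From 2 to 3 isotypes differed in linked share and 0 to 1 in the share of members (1 without NOD-FMT 8). V genes that differed between groups numbered 0 to 2, and 39 to 45 differed between members and IGHM-only. The linked share of IGHE ranged from -3.97 to 8.64 and the share of members with IGHA from -2.57 to 3.04 points.

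Depth limits the rule itself: a clonotype whose other isotype was not sequenced counted as IGHM-only or as unlinked, and 13.4% of members rested on 1 IGHM and 1 switched count.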
